A study of Macaca mulatta with 20 samples.

Results

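DPYSL3, TENM2, BICDL1 and MS4A8 are 4 genes that had been put together for signals that are high late in hCG exposure of the macaque corpus luteum, under a working name that calls them neuronal. Every probe set of the rhesus array whose only gene symbol is one of the 4 was taken. This gave 10 probe sets among the 52707 tested, and 4 genes among the 14132 named there. DPYSL3 has 1 probe set, TENM2 has 2, BICDL1 has 4 and MS4A8 has 3. The genes were selected on their signal on hCG day 18 (with day 15 beside it), so values on those days are a description here and carry no test. The neuronal name is checked against marker genes further on.

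The tissue is the corpus luteum of female rhesus macaques, the ovarian gland that makes progesterone after ovulation. Human chorionic gonadotropin (hCG) is the hormone with which an early pregnancy keeps this gland alive, and injections of it were used to mimic that signal. There are 5 groups of 4 arrays: untreated tissue of luteal day 10, and tissue taken after 1, 3, 6 or 9 days of hCG. Treatment began on luteal day 9, so these hCG groups are of luteal days 10, 12, 15 and 18. The hormone was recombinant, given into muscle 2 times a day in doses that climbed from 15 to 2880 IU over the full course. No untreated tissue later than day 10 is in the series, and the dose climbed as treatment went on. Days of hCG, dose and luteal age therefore move together and cannot be told apart. The labels do not say that each array is a separate animal, so the spread behind every p-value may be technical.

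Each of the 4 proteins has a known role. DPYSL3 (also called CRMP4) belongs to the collapsin response mediator proteins, which bind tubulin and actin and act in growth cones downstream of semaphorins. TENM2 is a teneurin, a large transmembrane adhesion protein that joins neurons at synapses by binding latrophilins on the facing cell. BICDL1 (BICDR1) is an adaptor that couples vesicles carrying RAB6 to dynein and kinesin motors, and its best known setting is the differentiating neuron. MS4A8 is a membrane protein of the MS4A family, which also holds CD20 (MS4A1) of B cells and several macrophage proteins. It is known from ciliated epithelium rather than from neurons.

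All arrays carried the stamp of luteal tissue. STAR, which moves cholesterol into mitochondria for steroid synthesis, read 11282 to 23031 across the 20 arrays. HSD3B2, the enzyme that makes progesterone, read 1742 to 2824 on hCG day 18, against 6740 to 9501 in untreated tissue. Signals are linear intensities scaled by the authors, with a median of 31.6 to 46.4 per array. A total of 28.7% to 36.5% of probe sets per array lay under 16 units, the pseudocount added before taking log2 and used here as a mark of very dim signal. Log2 signals of arrays within a group correlated at 0.959 to 0.979 over probe sets, which are not independent of each other. On the third principal component 3 arrays stood apart from the other 17, namely replicate 2 of the untreated group, replicate 1 of hCG day 12 and replicate 2 of hCG day 15 (-54.8 to -50.2 against -4.82 to 23.6), and results that depend on them are also given without them.

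By group means of log2(signal + 16), 4 of the 10 probe sets were highest on hCG day 18. They were the DPYSL3 probe set, both TENM2 probe sets and the brightest MS4A8 probe set. Of all 52707 probe sets, 24.7% were highest on hCG day 18 and 29.7% in untreated tissue. Of the BICDL1 probe sets 3 were highest on day 15 and 1 on day 12 on this scale. Among those 3, MmugDNA.18568.1.S1_s_at was level between day 18 and day 15, with mean signals of 205.9 and 205.8. MmugDNA.3097.1.S1_s_at was also level in log2 means, with day 18 minus day 15 at -0.0022 ± 0.31 (SE). The other MS4A8 probe sets were highest on hCG day 12 and in untreated tissue, at signals near the bottom of the array. The late pattern therefore holds for 3 of the 4 genes in their brightest probe set.

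DPYSL3 (MmugDNA.2168.1.S1_at) was bright from the start and brightest on hCG day 18. Its signals in replicates 1 to 4 were 228, 124, 181 and 229 in untreated tissue, and 123, 249, 157 and 168 on hCG day 10. They were 420, 239, 444 and 994 on hCG day 12, 1249, 1654, 467 and 1509 on day 15, and 1611, 2573, 2125 and 1501 on day 18. Every day-12, day-15 and day-18 array lay above every untreated array, while day 10 lay among the untreated values. The means were 191 ± 49.7 in untreated tissue, then 174 ± 53.3, 524 ± 326, 1220 ± 529 and 1952 ± 495 on hCG days 10, 12, 15 and 18 (SD, n = 4 each). In order of level, the step between untreated and hCG day 12 was the one with no overlap, and the lower day-18 arrays overlapped the higher day-15 arrays. On the log2(signal + 16) scale, hCG day 18 was 3.25 ± 0.38 (SE) above untreated and day 15 was 2.47 ± 0.38 above it. The day-18 mean signal was 10.2 times the untreated mean.

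MS4A8 (MmugDNA.28074.1.S1_at) had the cleanest late step. The signals in replicates 1 to 4 were 228, 128, 166 and 168 in untreated tissue, and 115, 275, 124 and 163 on hCG day 10. They were 650, 288, 144 and 391 on hCG day 12, 1026, 543, 554 and 930.5 on day 15, and 1477, 1385, 1268 and 1891 on day 18. All 4 day-18 arrays lay above all other arrays, and all 4 day-15 arrays lay above the untreated ones, while day 12 still overlapped untreated tissue. Mean signals were 173 ± 41.5 in untreated tissue, then 169 ± 73.3, 368 ± 214, 763 ± 251 and 1505 ± 271 on hCG days 10, 12, 15 and 18 (SD, n = 4 each). The log2 difference from untreated was 3.02 ± 0.34 (SE) on hCG day 18 and 2.02 ± 0.34 on day 15. As a ratio of mean signals, hCG day 18 stood at 8.73 times untreated. MS4A8 was the member with no overlap between hCG day 18 and day 15, where 2.03% of all probe sets had non-overlapping higher day-18 values.

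TENM2 had a baseline at the floor of the array. In replicates 1 to 4 its brighter probe set (MmugDNA.2288.1.S1_at) read 3.80, 6.38, 1.12 and 17.6 in untreated tissue, and 1.64, 22.7, 32.4 and 2.50 on hCG day 10. It read 34.3, 1.84, 68.2 and 136 on hCG day 12, 474, 26.1, 6.57 and 268 on day 15, and 142, 325, 309 and 927 on day 18. Day 18 is the only group in which all 4 arrays were clear of the floor, whereas on day 15 1 array was still under 16 units and another was at 26.1. On hCG day 18 it lay at the 69.0th to 92.7th percentile of its 4 arrays, against the 2.38th to 30.5th percentile in the 4 untreated arrays, of which 3 read under 16 units. The groups next to each other in level all overlapped.

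The second TENM2 probe set (MmuSTS.1044.1.S1_at) followed the same arrays. It read 14.2, 3.91, 15.7 and 14.3 in untreated tissue, 8.47, 22.0, 26.6 and 17.0 on hCG day 10, and 11.2, 5.26, 31.4 and 66.9 on day 12. On day 15 it read 94.0, 18.8, 14.9 and 110, and on day 18 70.5, 129, 114 and 246. The high day-15 arrays were replicates 1 and 4 in both TENM2 probe sets, and the day-18 array with the highest value was replicate 4 in both. The log2 difference of hCG day 18 from untreated was 3.99 ± 0.81 (SE) in the brighter probe set and 2.38 ± 0.46 in the second. With such a low baseline this size depends on the pseudocount, and the brighter probe set gave 5.80 with 1 unit and 2.55 with 64 units added. No plain fold change is given for TENM2 for that reason.

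BICDL1 was up earlier and level later. In replicates 1 to 4 its brightest probe set (MmugDNA.18568.1.S1_at) read 147, 142, 226 and 121 in untreated tissue, 130, 326, 379 and 335 on hCG day 10, and 665, 342, 628 and 421 on day 12. It read 825, 641, 595 and 967 on day 15, and 701, 646, 542 and 815 on day 18. On hCG days 12, 15 and 18 every array lay above every untreated array, and the day-18 and day-15 arrays overlapped. The log2 difference from untreated was 0.76, 1.58, 2.15 and 2.00 on hCG days 10, 12, 15 and 18, each ± 0.28 (SE). The mean signal on hCG day 18 was 4.26 times the untreated mean and 0.893 times the day-15 mean.

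**Figure D1:**
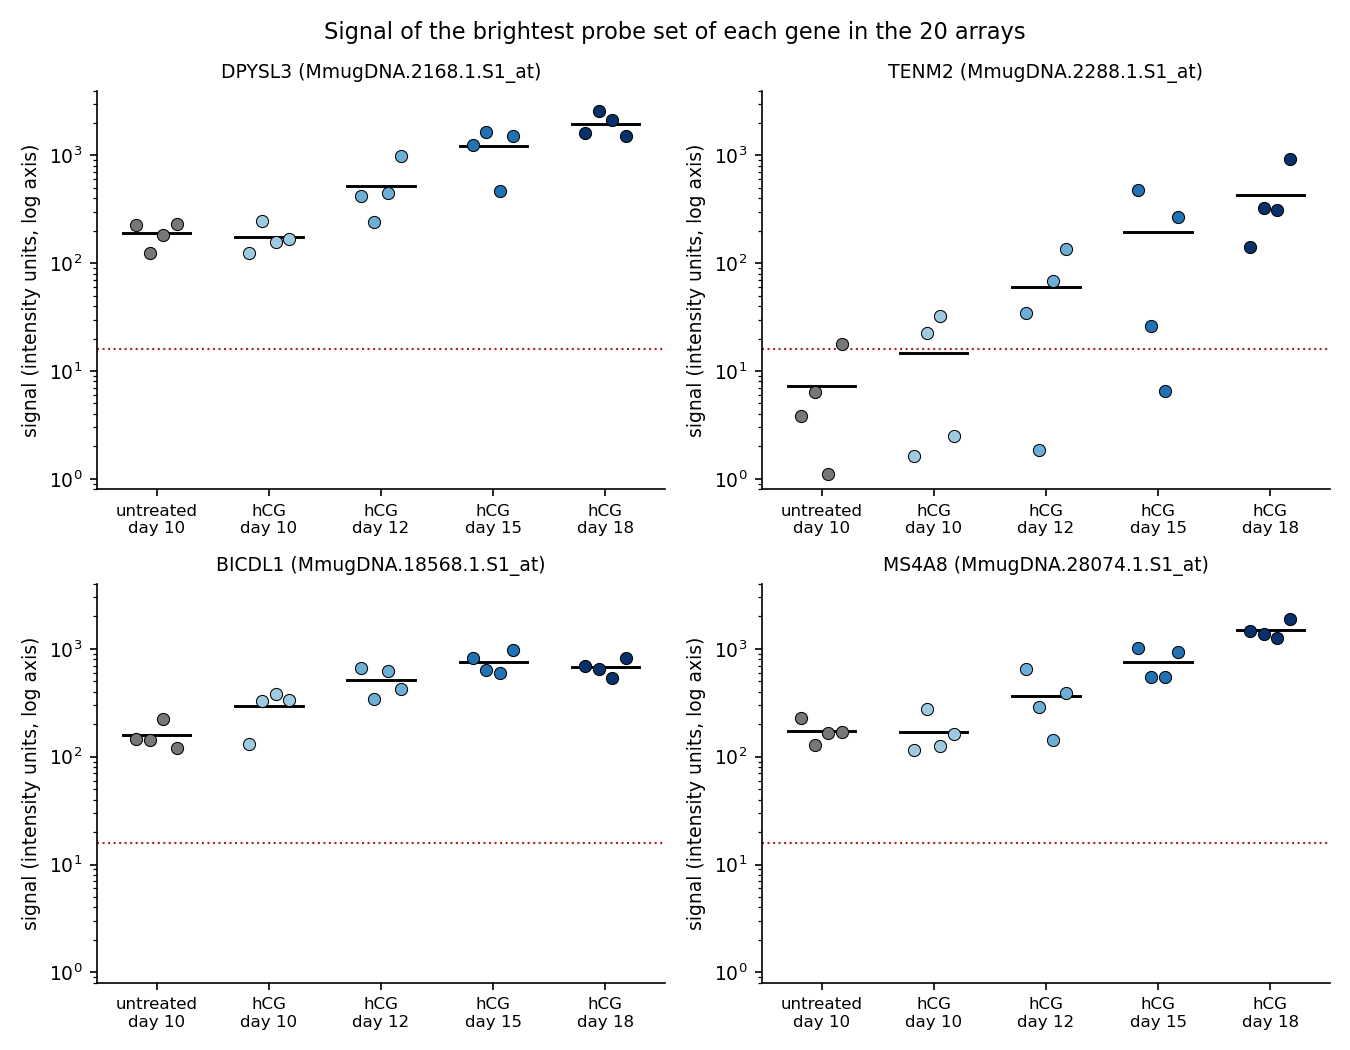
Signal (intensity units, log axis) of the brightest probe set of each gene in all 20 arrays, by group; points are arrays, bars are group means and the dotted line marks 16 units. DPYSL3, TENM2 and MS4A8 are highest on hCG day 18, and TENM2 starts under the line in 3 of 4 untreated arrays. In BICDL1 and DPYSL3 every day-12 array is already above every untreated array.

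Probe sets of one gene agreed well for TENM2, in part for BICDL1 and not for MS4A8. The deviations of arrays from their group means correlated at r = 0.924 between the TENM2 probe sets over 20 arrays (0.910 to 0.941 with any 1 array left out). For BICDL1, the second probe set (MmugDNA.18568.1.S1_s_at) shares its array cluster with the brightest one and correlated with it at 0.679. Its mean signals were 108, 138, 173, 206 and 206 in untreated tissue and on hCG days 10, 12, 15 and 18, a log2 difference of 0.84 ± 0.15 (SE) on day 18 against untreated. This is a smaller difference than in the brightest probe set, with the same order of the early groups.

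The remaining BICDL1 probe sets were dim. MmuSTS.754.1.S1_at had mean signals of 24.0, 33.7, 60.0, 36.3 and 32.3 in the same order of groups, so it was highest on hCG day 12, with all day-12 arrays above all day-15 arrays. Its deviations correlated with those of the brightest probe set at 0.134. MmugDNA.3097.1.S1_s_at had means of 18.7, 18.2, 28.4, 42.5 and 35.1 and a correlation of 0.208. On the log2 scale its means on hCG days 15 and 18 were level, at 5.67 and 5.67. MmuSTS.754.1.S1_at thus placed the top of BICDL1 on day 12, while MmugDNA.3097.1.S1_s_at did not separate day 15 from day 18.

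The 2 further MS4A8 probe sets carried little signal. The one highest on hCG day 12 had group means of 5.09 to 13.8 and MmugDNA.40492.1.S1_at of 5.38 to 14.1, all under 16 units. Their log2 differences of hCG day 18 from untreated were 0.12 ± 0.25 and -0.21 ± 0.21 (SE; the second was 0.063 without untreated replicate 2), and their deviations correlated with those of the bright probe set at -0.183 and -0.118. The late MS4A8 level therefore rests on 1 of 3 probe sets, and DPYSL3 on its single one. Which transcripts each probe set reads was not examined.

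**Figure D2:**
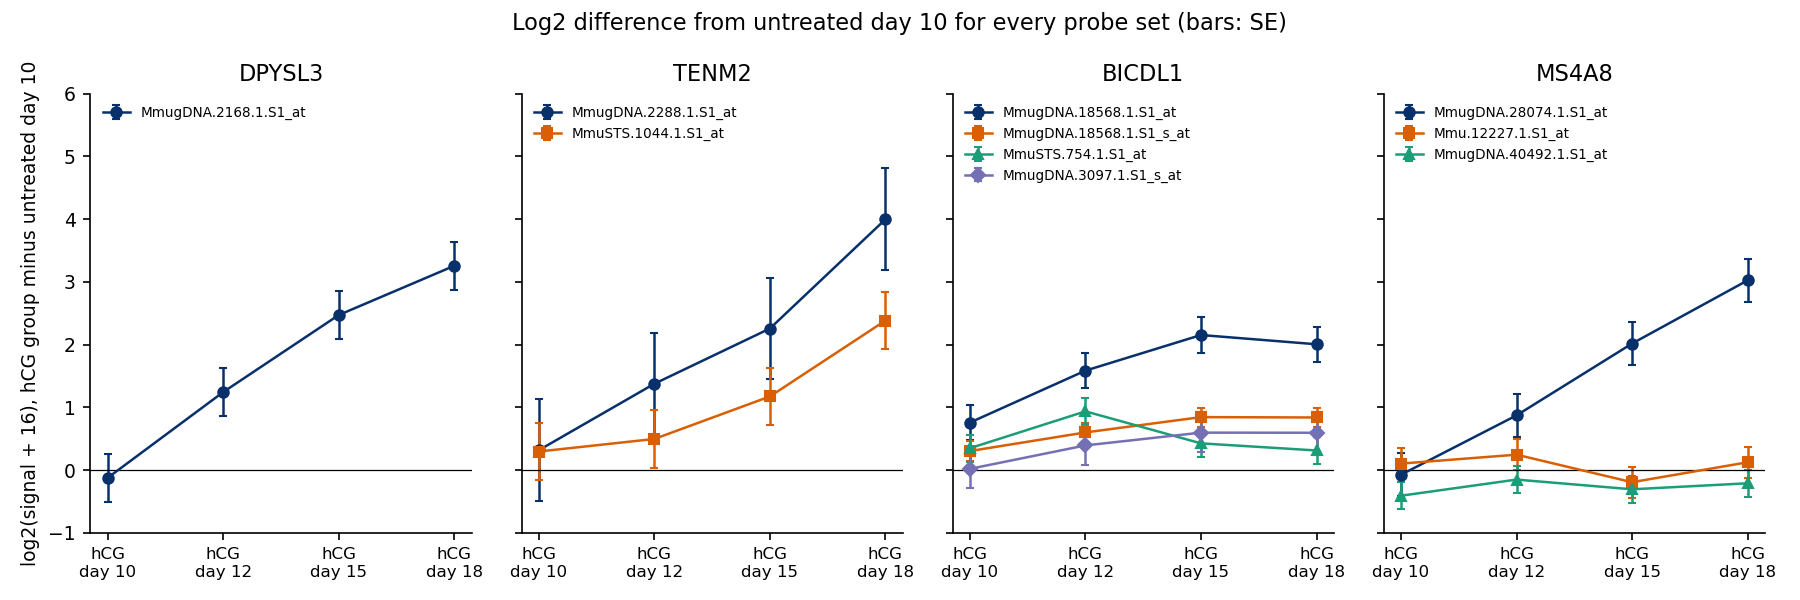
Log2(signal + 16) of each hCG group minus untreated day 10 for all 10 probe sets, by gene; points are differences and bars are SE of the fit over 20 arrays. The TENM2 lines climb together, and the BICDL1 lines spread from 0.31 to 2.00 on day 18. Only 1 of 3 MS4A8 lines climbs, and the others stay between -0.41 and 0.24.

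The early days are the comparisons that the choice of genes did not use directly. They still share the untreated arrays with the later ones, and the genes were chosen with earlier results of these data known. One day of hCG changed none of the probe sets past the threshold: 0 of 10 passed in limma (Benjamini-Hochberg adjusted p under 0.05 over all probe sets), and 1 had an unadjusted p under 0.05. Over all probe sets 0.954% passed and 12.4% had an unadjusted p under 0.05. That 1 was the brightest BICDL1 probe set, at 0.76 ± 0.28 (SE) on the log2 scale (limma adjusted p = 0.255). Its hCG day 10 replicate 1, at 130, lay among the untreated arrays while the other 3 lay above all of them. Without that array the difference was 1.08 and the limma adjusted p was 0.0329, so the call on day 10 turns on 1 array. DPYSL3 and MS4A8 differed from untreated by -0.12 ± 0.38 and -0.08 ± 0.34 after one day, less than their SE. Those signs are not settled: leaving out single arrays moved DPYSL3 between -0.30 and 0.01 and MS4A8 between -0.32 and 0.07, and median-centring gave MS4A8 0.04.

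After 3 days of hCG, BICDL1 was the only gene with a probe set past the threshold. DPYSL3 also had every array above every untreated array on that day, without passing. The brightest BICDL1 probe set was 1.58 ± 0.28 (SE) above untreated (limma adjusted p = 0.0156). Of the 10 probe sets 1 passed, against 0.157% of all probe sets in this direction. The call was lost without untreated replicate 1 or 4 or hCG day 12 replicate 1 or 3 (limma adjusted p = 0.0572, 0.0741, 0.0578 and 0.0727), without the 3 arrays that stood apart (0.132) and with these 2 groups fitted alone (0.0957). Its difference stayed between 1.41 and 1.76 in these fits and in those without another single array. DPYSL3 stood 1.24 ± 0.38 above untreated (adjusted p = 0.238), MS4A8 0.87 ± 0.34 (0.374) and the brighter TENM2 probe set 1.37 ± 0.81 (0.568), and none of them passed in limma. The dim BICDL1 probe set that was highest on this day stood 0.93 ± 0.22 above untreated (limma adjusted p = 0.0763), and 0.0306 without untreated replicate 2. An unadjusted p under 0.05 was found for 5 of the 10, and for 10.6% of all probe sets.

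Between hCG day 12 and hCG day 10, all 10 probe sets had differences above 0, and 0 passed in limma, with 4 at an unadjusted p under 0.05. Over all probe sets 48.3% had a difference above 0, 8.28% an unadjusted p under 0.05, and 0.518% passed. DPYSL3 was 1.37 higher on day 12 than on day 10 (limma adjusted p = 0.166), MS4A8 0.95 (0.371), the brightest BICDL1 probe set 0.83 (0.312) and the brighter TENM2 probe set 1.06 (0.836). Of the differences above 0, those of the second TENM2 probe set and of the dim MS4A8 probe set that was highest on day 12 turned negative (to -0.16 and -0.10) without hCG day 12 replicate 4. At 4 arrays a group, no early comparison called DPYSL3, TENM2 or MS4A8, so their first day above untreated tissue was not resolved by test.

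The groups can also be read by overlap. Higher values in all 4 hCG arrays than in all 4 untreated arrays were found for 4 of the 10 probe sets on hCG day 12, where 2.14% of all probe sets had this. The count was 4 of 10 on day 15 against 2.64%, and 6 of 10 on day 18 against 4.79%. For day 15 and day 18 the choice of genes fixes much of this. The day-12 count shares the untreated arrays, and the genes were chosen with earlier results of these data known. Nothing is read from any of these counts. The median log2 difference of the 10 probe sets from untreated was 0.20, 0.74, 1.01 and 1.42 on hCG days 10, 12, 15 and 18, and that of all probe sets was -0.05, -0.06, -0.05 and -0.03.

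Some arrays lay on the same side of their group mean in all 4 genes at once. On hCG day 15 replicates 1 and 4 lay above the group mean in the brightest probe set of every gene. Replicate 3 lay below it in every one. Replicate 2 was mixed: DPYSL3 deviated by 0.58, and TENM2, BICDL1 and MS4A8 by -1.35, -0.21 and -0.42 (log2). DPYSL3 read 467 in hCG day 15 replicate 3, against 1249 to 1654 in the other arrays of the group. Over the 20 arrays, 3 had all 4 genes above their group means and 4 had all 4 below. How often unrelated genes would do so was not tested. The correlation of deviations between genes ranged from 0.220 (DPYSL3 with BICDL1) to 0.557 (DPYSL3 with TENM2), and the value of 0.557 spanned 0.352 to 0.714 with any 1 array left out. These are descriptions over 20 arrays that share tissue, extraction and array scaling.

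**Figure D3:**
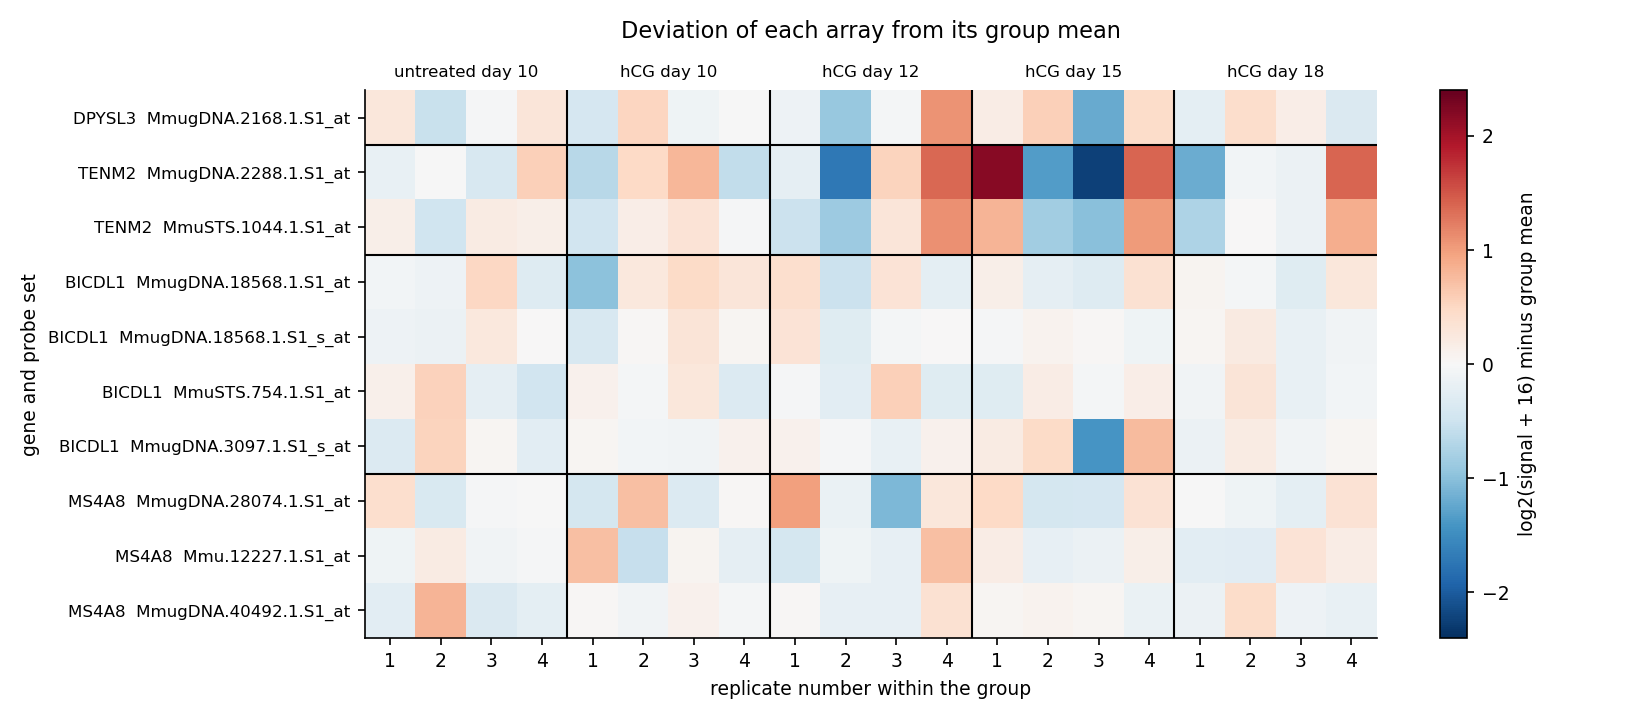
Deviation of each array from its group mean in log2(signal + 16), for all 10 probe sets (rows, the brightest of each gene first) and the replicates of each group (columns); red is above the mean and blue below it. On hCG day 15 replicates 1 and 4 are above the mean in the first row of every gene and replicate 3 is below it in each of them.

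The neuronal name was set against 20 neuron markers, of which 11 were measured. On hCG day 18 against untreated, 0 rose and 2 fell in limma, where 2.78% of named genes rose and 3.31% fell, and 21.1% had an unadjusted p under 0.05. GAP43, a protein of growing axons, had mean signals of 80.7 on hCG day 18 and 354 in untreated tissue (log2 difference -1.94 ± 0.35, limma adjusted p = 0.00271). TUBB3, the tubulin used to stain neurons, had mean signals of 86.0 and 155 in the same groups (-0.75 ± 0.15, limma adjusted p = 0.00721). Among the other 9, the vesicle protein VAMP2 differed by -0.41 ± 0.18 and the neurofilament NEFH by 0.07 ± 0.22, and neither passed. In every group 6 of the 11 had a mean signal under 16 units, SYT1, STMN2, ELAVL4 and DCX among them. The summed signal of the list was 489 to 727 per array on hCG day 18, against 897 to 1123 in untreated tissue. The median log2 difference of the list was -0.27, and that of all named genes -0.03. The neuron markers that passed thus fell on the arrays where DPYSL3, TENM2 and MS4A8 were highest. In this bulk tissue fewer cells of a type and less RNA per cell cannot be told apart.

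Markers of sympathetic and neuroendocrine cells and of Schwann cells gave 1 rise among 16 measured genes. UCHL1, a ubiquitin hydrolase abundant in neurons, had mean signals of 5962 on hCG day 18 and 3374 in untreated tissue (log2 difference 0.83 ± 0.20, limma adjusted p = 0.0189). The UCHL1 call was lost with quantile normalisation and in 4 fits, those without the 3 arrays apart, untreated replicate 2 or 4, or hCG day 18 replicate 4. The noradrenaline enzymes TH and DBH had mean signals of 11.1 and 15.2 on hCG day 18, against 18.2 and 9.41 in untreated tissue. Of the 7 Schwann cell genes 0 passed in limma, and 1 had an unadjusted p under 0.05. Of the brightest, the myelin gene PMP22 differed by -0.14 ± 0.27 and GFRA3 by 0.75 ± 0.27 (limma adjusted p = 0.884 and 0.153).

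Relatives and partners of the 4 genes were examined on the same day. Of 16 CRMP and semaphorin genes 0 passed on hCG day 18 in limma, with 3 at an unadjusted p under 0.05 and a median difference of -0.11. DPYSL5 differed from untreated by -0.46 ± 0.19, CRMP1 by 0.18 ± 0.38 and DPYSL4 by -0.10 ± 0.31, beside 3.25 for DPYSL3. The brightest genes of the list, the semaphorin receptor NRP1 and the ligand SEMA3C, differed by -0.14 ± 0.19 and -0.81 ± 0.27 (limma adjusted p = 0.816 and 0.105). Of this list, 1 gene passed as lower with the 2 groups fitted alone and 2 did without hCG day 18 replicate 2.

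Of 8 other teneurins and teneurin partners 0 passed, with 1 at an unadjusted p under 0.05. TENM4 averaged 33.8 on hCG day 18 and 32.0 in untreated tissue, and TENM1 averaged 2.71 and 10.6. The latrophilins ADGRL1 and ADGRL2, the receptors that teneurins bind, differed by 0.15 ± 0.20 and -0.26 ± 0.14. FLRT2, another latrophilin ligand, differed by 0.58 ± 0.18 (limma adjusted p = 0.0922).

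Of 16 genes of dynein adaptors and RAB6 transport, 0 rose and SPDL1, which brings dynein to kinetochores, fell (-0.60 ± 0.16, limma adjusted p = 0.0443). The SPDL1 call was lost in 7 of 8 fits without a single array, the exception being hCG day 18 replicate 3, and with median-centring, quantile normalisation, a pseudocount of 1, the 2 groups alone, or without the 3 arrays apart. The closest relatives of BICDL1 did not pass either: BICD1 differed by -0.69 ± 0.29, BICD2 by -0.31 ± 0.10 and BICDL2 by -0.33 ± 0.28. RAB6A, the vesicle GTPase that BICDL1 binds, differed by 0.44 ± 0.16 (limma adjusted p = 0.164).

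For MS4A8, 9 other genes of its family were measured, the related TMEM176 genes included. Of these 0 passed, with 2 at an unadjusted p under 0.05 and a median difference of 0.40. MS4A7 and MS4A4A, which macrophages express, differed by 1.01 ± 0.32 (limma adjusted p = 0.0931) and 0.78 ± 0.41 (0.389) in their brightest probe sets. The dimmer MS4A7 probe sets differed by -0.12 ± 0.47 and 0.26 ± 0.64, and those of MS4A4A by 0.63 ± 0.38 and 0.65 ± 0.41. The brightest genes of the list, TMEM176B and TMEM176A, differed by 0.56 ± 0.28 and 0.83 ± 0.36. Without untreated replicate 1, 1 gene of the list passed as higher. The B cell gene MS4A1 averaged 13.7 on hCG day 18 and 7.32 in untreated tissue. Of 11 genes of multiciliated cells 0 passed, with 0 at an unadjusted p under 0.05, and their summed signal was 217 to 303 on hCG day 18, against 210 to 363 in untreated tissue. FOXJ1, the regulator of motile cilia, averaged 12.8 and 17.4 in these groups.

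**Figure D4:**
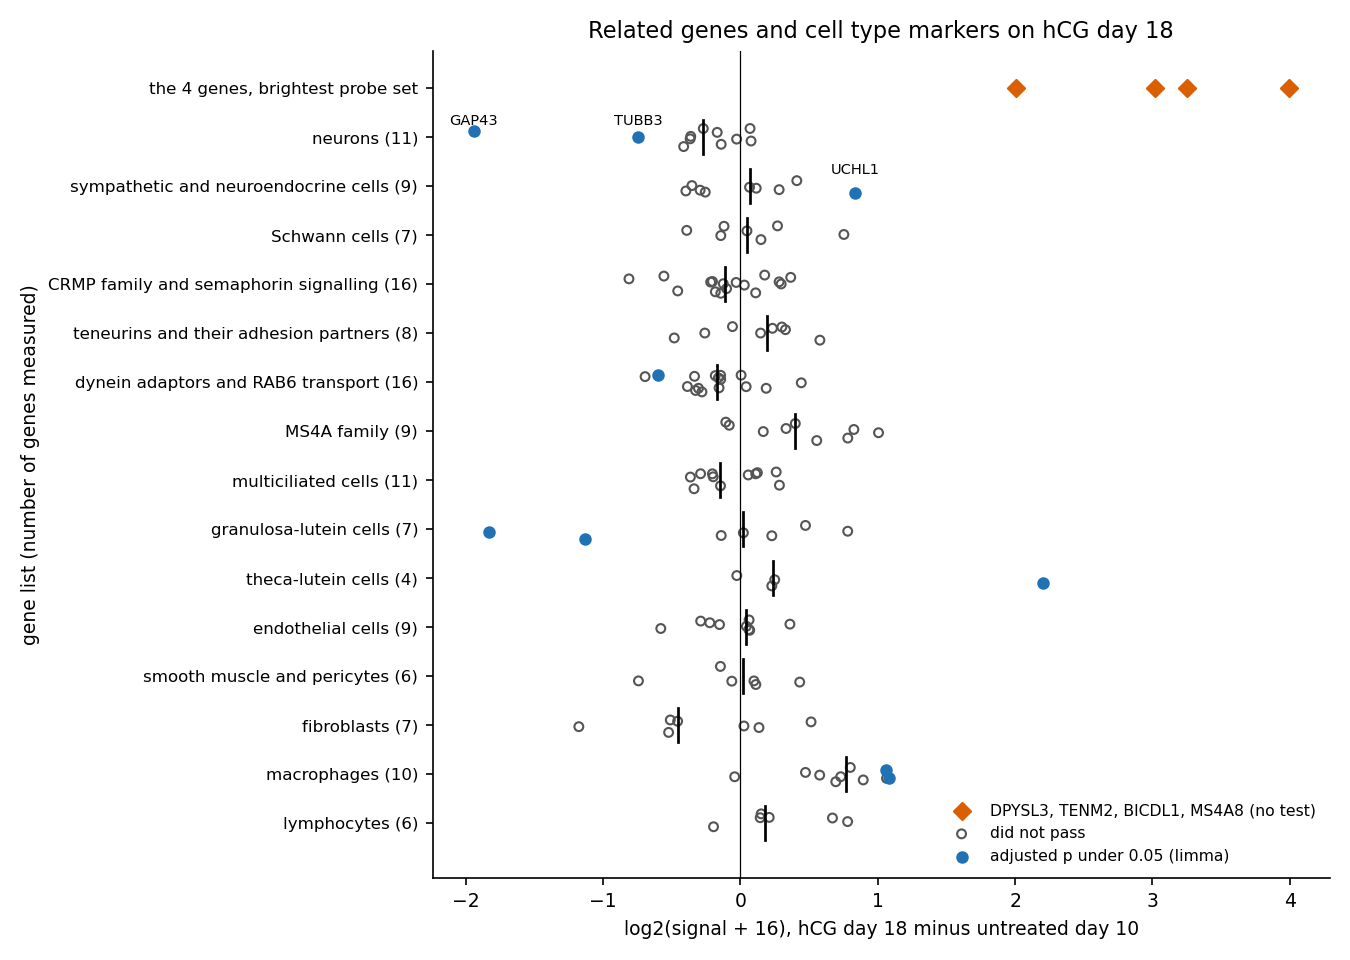
Log2(signal + 16) on hCG day 18 minus untreated day 10 for the genes of 15 lists, with the brightest probe set of the 4 genes in the top row; each point is a gene and coloured points passed in limma. The 4 genes lie at 2.00 to 3.99, while neuron markers lie at or below 0.08.

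Other cell types of the gland were set beside these levels. Macrophage markers moved in the same direction as the 4 genes: 2 of 10 measured rose on hCG day 18, CSF1R by 1.06 ± 0.23 (limma adjusted p = 0.0121) and C1QC by 1.08 ± 0.28 (0.0354). Of the 10, 9 had differences above 0 and 6 an unadjusted p under 0.05 in limma. Among all named genes 2.78% rose and 21.1% had an unadjusted p under 0.05. The median difference of the macrophage markers was 0.77. Their summed signal was 9327 to 17146 on hCG day 18, against 3549 to 10091 in untreated tissue. MARCO was the one marker with a group mean under 16 units. The count of macrophage markers that rose ranged from 0 with the 2 groups fitted alone to 4 without untreated replicate 2. On hCG day 15, where MS4A8 and DPYSL3 were already above untreated tissue, the macrophage sum was 5602 to 8530. The part of macrophages in the signals of the 4 genes was not tested.

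Steroid-making cells changed within their markers. Of 7 granulosa-lutein genes, HSD3B2 and HSD11B1 fell on hCG day 18 in limma (log2 difference -1.83 ± 0.21 and -1.13 ± 0.13). The summed signal of that list was 50663 to 65475 on hCG day 18, against 53181 to 63382 in untreated tissue. Of 4 theca-lutein genes CYP17A1, the androgen-making enzyme, rose by 2.20 ± 0.34. Lists for endothelial cells, smooth muscle and pericytes, fibroblasts and lymphocytes had 0 genes past the threshold in limma, with 0, 1, 0 and 2 at an unadjusted p under 0.05. The bright endothelial gene PECAM1 differed by 0.06 ± 0.15, the pericyte gene MCAM by 0.11 ± 0.16, the fibroblast gene DCN by 0.14 ± 0.21 and the granzyme gene GZMB by 0.67 ± 0.27. The part of these shifts in the levels of the 4 genes was not tested either. In the earlier hCG groups the 15 lists had 0 genes past the threshold on day 10 or day 12, and on day 15 1 granulosa-lutein gene lower and 1 theca-lutein gene higher. Of all named genes 1.12% rose and 0.425% fell on day 10, 0.262% and 0.191% on day 12, and 0.969% and 0.998% on day 15.

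Genes with a like pattern over the arrays were sought among 16391 named probe sets in the upper 50% by mean signal. Nearest to DPYSL3 over the 20 arrays was XKRX (r = 0.972), a membrane protein of the XK family. XKRX read 520 to 835 on hCG day 18, against 60.3 to 121 in untreated tissue. It also had the highest correlation with DPYSL3 in deviations from group means (r = 0.915, and 0.878 to 0.937 with any 1 array left out), so the likeness held inside groups. PCMTD1, the biliverdin reductase gene BLVRB, the metal transporter gene SLC11A1 and the ferric reductase gene CYBRD1 came next over the 20 arrays.

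Nearest to TENM2 was TC2N (r = 0.945, and 0.880 in deviations from group means). TC2N read 121 to 259 on hCG day 18, against 24.0 to 51.3 in untreated tissue. On hCG day 15 it read 171, 84.3, 27.1 and 128 in replicates 1 to 4, with the same replicate 1 high and replicate 3 low as in TENM2. The growth factor gene EGF followed (r = 0.903), then ZNF233, NFE2L1 and EXT1. In deviations from group means PGRMC1 (0.860), a haem-binding membrane protein linked to progesterone responses, and the kinase PRKD1 (0.845) came after TC2N.

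Nearest to BICDL1 over the 20 arrays were PSME3 (r = 0.958), EBP (0.951), MVD (0.916), the glutathione transferase gene MGST1 (0.914) and SLC11A1 (0.909). PSME3 is a proteasome activator, and EBP and MVD are enzymes of cholesterol synthesis. In deviations from group means the nearest were EBP (0.820), INSIG1 (0.813), which holds back sterol-regulated transcription, and MVD (0.811). With any 1 array left out these spanned 0.720 to 0.857, 0.689 to 0.909 and 0.788 to 0.862. On hCG day 10, EBP read 689 in replicate 1, against 1187 to 1817 in the others, and BICDL1 was low in the same array. On hCG day 12 replicate 1 was the highest array in both genes.

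MS4A8 was followed most closely by CYBRD1 (r = 0.932), XKRX (0.925), SCPEP1, FHL1 and DPYSL3 (0.907). Inside groups these likenesses were loose: the deviations of CYBRD1 and MS4A8 correlated at 0.435, and at 0.0356 to 0.539 with any 1 array left out. The nearest in deviations were TFDP2 (0.787), DEF6 (0.768) and AGPAT4 (0.759), a different set from the nearest over 20 arrays. Among the 4 genes, DPYSL3 and MS4A8 were the closest pair over 20 arrays: DPYSL3 ranked 7th of all eligible probe sets for MS4A8, and MS4A8 13th for DPYSL3. In deviations from group means this pair correlated at 0.321. BICDL1 was the farthest over 20 arrays, ranking 181st for DPYSL3, 260th for TENM2 and 155th for MS4A8. These ranks include the late values on which the genes were selected, so nothing is read from them. All these correlations compare arrays of the same 5 groups and are descriptions over 20 arrays, with no test.

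**Figure D5:**
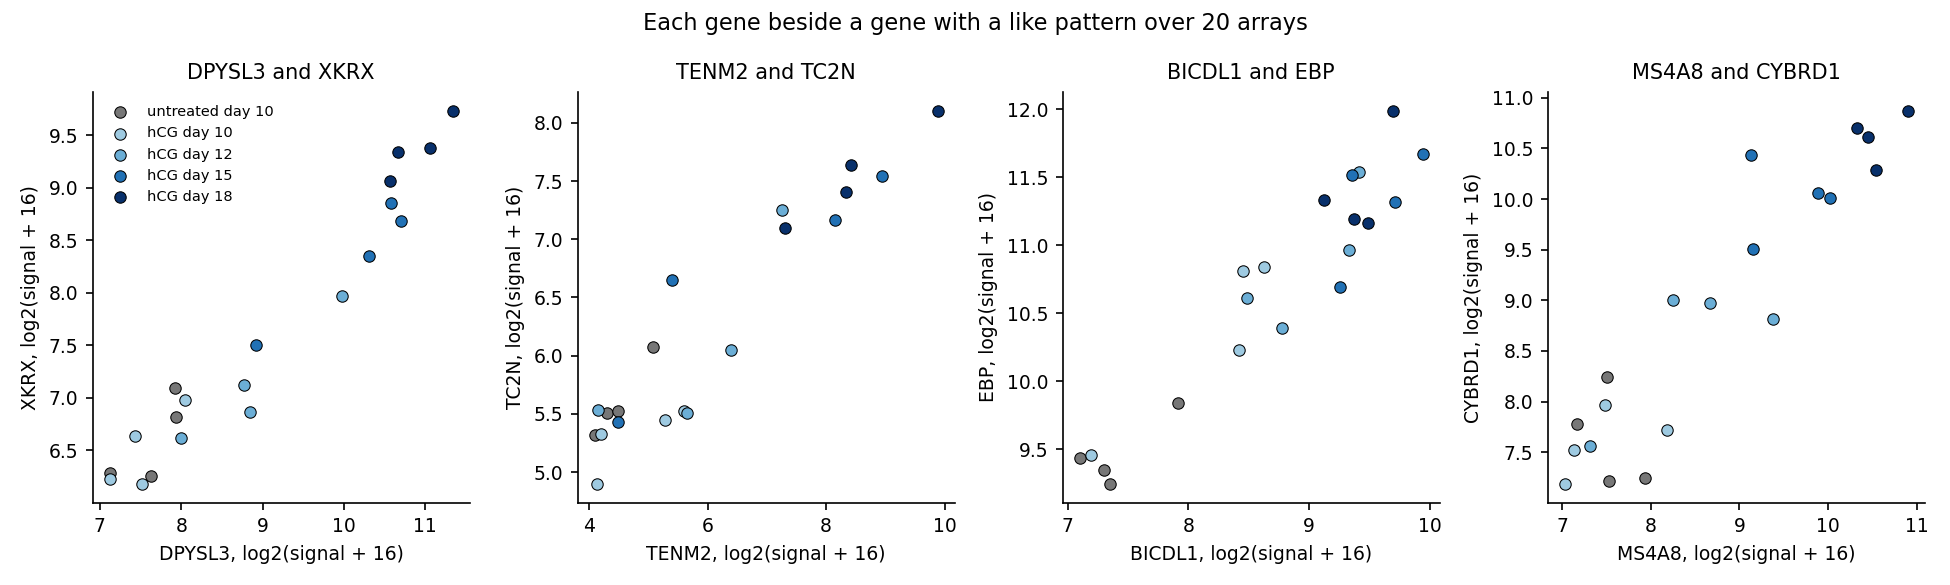
Log2(signal + 16) of each of the 4 genes (x axis) against a gene of like pattern (y axis) in 20 arrays, coloured by group. XKRX follows DPYSL3, TC2N follows TENM2 and EBP follows BICDL1 within groups as well as between them, while the MS4A8 pair is ordered mainly by group.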

How the data were processed

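Messenger RNA was measured with Affymetrix rhesus arrays in 20 samples of corpus luteum, 5 groups of 4 per the labels. The deposited values are 1 linear intensity per probe set and array, made by the authors with GCOS software per the submitters' processing notes, with no version named. Tested on the values, the 2% trimmed mean was 200.01 to 200.02 in every array, so arrays had been scaled to one target. Detection calls and genome positions were not used here. Dim probe sets hold background and cross-hybridisation, and the number of arrays is among the limits on the precision.

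Of 52865 probe sets, 158 controls were left out. Symbols came from the platform annotation: 24956 probe sets carry 1 symbol, 361 several and 27390 none. Log2(signal + 16) of all 20 arrays entered 1 fit of group means in limma 3.58.1 (R 4.3.3), with Benjamini-Hochberg adjustment over 52707 probe sets and a threshold of 0.05. A log2 difference on this scale understates changes of dim probe sets. The procedure was tested on simulated data. Members and the 15 lists of related genes and markers (135 of 189 genes measured, by their brightest probe set) were chosen with earlier results of these data known. From each list up to 4 genes that passed on hCG day 18 by smallest adjusted p were named, or up to 2 of the brightest. Further relatives, partners and markers were named after their values were seen. Likeness is Pearson's r of log2 values, with the 5 nearest genes over 20 arrays and the 3 nearest in deviations from group means. Alternatives were median-centring, quantile normalisation, pseudocounts of 1 and 64, the upper 50% of probe sets, 2 groups alone, a replicate block, averaging the probe sets of a gene, and leaving out the 3 arrays apart or each array.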

Additional observations from a re-analysis of the deposited data

Results flagged for a closer look

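Within each group of 4 arrays, the highest and lowest log2(signal + 16) values of the 10 probe sets were checked by Dixon's rule. An array was marked when its gap to the nearest other array took up more of the range than the critical value allows. With 50 groups checked, 5 arrays were marked, and chance alone marks about 1 group in 20. BICDL1 (MmugDNA.18568.1.S1_at) read 130 in hCG day 10 replicate 1, against 326, 335 and 379 in the other arrays of its group, and this array decides whether BICDL1 passes on hCG day 10. TENM2 (MmuSTS.1044.1.S1_at) read 3.91 in untreated replicate 2, against 14.2, 14.3 and 15.7 in the others, all of them under 16 units. MS4A8 (MmugDNA.40492.1.S1_at) was marked in 3 groups: it read 17.2 in hCG day 18 replicate 2 against 5.76 to 6.44 in the others, 4.39 in hCG day 15 replicate 4 against 7.56 to 8.14, and 34.2 in untreated replicate 2 against 6.41 to 8.01. That probe set had group means under 16 units throughout.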

How the results depend on the processing

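The differences of hCG day 18 from untreated kept their sign in the brightest probe set of all 4 genes under every alternative run. Leaving out single arrays gave 3.08 to 3.37 for DPYSL3, 3.53 to 4.39 for TENM2, 1.90 to 2.17 for BICDL1 and 2.90 to 3.15 for MS4A8 (log2). TENM2 moved to 5.80 and 2.55 with pseudocounts of 1 and 64, MS4A8 to 2.73 with 64, and averaging the probe sets of a gene gave 0.94 for BICDL1 and 0.98 for MS4A8. The BICDL1 call on hCG day 12 was lost with the 2 groups alone (1.58) and without the 3 arrays apart (1.41), and spanned 1.45 to 1.76 without single arrays. On hCG day 10 BICDL1 spanned 0.61 to 1.08, past the threshold without 1 array. Signs near 0 turned, all without a call. On hCG day 10 MS4A8 (MmugDNA.28074.1.S1_at) gave 0.040 with median-centring and -0.32 to 0.067 without single arrays, and DPYSL3 -0.30 to 0.013. Also on day 10, MmugDNA.3097.1.S1_s_at (BICDL1) gave -0.0016 with a pseudocount of 64 and -0.090 to 0.20 without single arrays, and the dim MS4A8 probe set highest on day 12 gave -0.029 with a pseudocount of 1 and -0.14 to 0.29. On day 12, MmugDNA.40492.1.S1_at (MS4A8) gave 0.11 without the 3 arrays and -0.27 to 0.12, and on day 18 it gave 0.063 without the 3 arrays and -0.36 to 0.063. For hCG day 12 over hCG day 10, single arrays moved MmuSTS.1044.1.S1_at (TENM2) to between -0.16 and 0.49 and that dim MS4A8 probe set to between -0.10 and 0.38. The cause of these moves was not tested.

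The number of probe sets called over the whole array moved more. For hCG day 10 it was 503, against 254 with a pseudocount of 1, 172 with the 2 groups alone, 324 without the 3 arrays and 228 to 577 without single arrays. For hCG day 12 it was 152, against 95, 7 and 93 in these settings, 233 in the upper 50% and 73 to 290. For hCG day 15 it was 681, against 410, 230, 359 and 321 to 774. For hCG day 12 over hCG day 10 it was 273, against 146 with a pseudocount of 1, 56 with the 2 groups alone and 151 to 286. The upper 50% holds only the brighter probe sets, so 5 of the 10 have no value there.

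Deviations of same-numbered arrays correlated weakly on average: the mean was 0.0358 over 40 pairs, against -0.0118 for different numbers. Of these pairs 14 were over 0.1, the highest at 0.363, and 8 of 20 arrays correlated best with their own number. Whether the numbers mark a pairing was not tested. With the replicate number as a block, BICDL1 on hCG day 12 gave 1.58 (limma adjusted p = 0.0307), no main call of the 4 genes changed, and 1 teneurin partner passed as higher on hCG day 18.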
